A study of Mus musculus with 6 samples.

Results

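The genes described here encode the constitutive proteasome: the subunits of its core and regulatory particles, its activators and inhibitor, and the chaperones that assemble it. They were taken as every row of the deposited table whose symbol is Psm followed by a letter from a to g and a number, leaving out the interferon-inducible catalytic subunits Psmb8, Psmb9 and Psmb10. The rule found 43 genes among 12969. The tissue sequenced was the infarct of perfused hearts from male mice about 12 weeks old, taken 4 days after a suture closed the left anterior descending artery for good, a model of myocardial infarction. There were 3 libraries from Irf3-/- mice and 3 from wild-type (WT) C57BL/6 mice, and all 6 hearts carried the infarct, so no uninjured heart stands beside them. The labels do not say which part of Irf3 is deleted and give a strain for the wild type only. Nothing in them says more of the animals behind the libraries, so the p-values below speak of the spread among these 6 libraries, which may be technical. Values are RPKM, read counts scaled to gene length and library size.

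The proteasome is the protease that breaks down most short-lived and damaged proteins of the cytosol and nucleus once they carry a chain of ubiquitin. Its core particle (20S) is a stack of rings, outer rings of alpha subunits (Psma genes) that gate the entry and inner rings of beta subunits (Psmb genes) that hold the active sites. The regulatory particle (19S) binds the ubiquitin chain, unfolds the substrate with a ring of ATPases (Psmc genes) and feeds it in with the help of non-ATPase subunits (Psmd genes). Interferons can replace the catalytic beta subunits by Psmb8, Psmb9 and Psmb10 and raise the activator genes Psme1 and Psme2, which shapes the peptides shown by MHC class I. In the heart the proteasome clears sarcomere proteins and oxidised proteins, and after ischaemia it acts in dying muscle and in the inflammatory and fibroblast cells that replace it. Irf3, activated when cells sense foreign or misplaced nucleic acid, induces interferon and antiviral genes by binding an interferon-stimulated response element (ISRE).

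Promoters of the members were searched for 3 motifs on both strands of the 250 bases before each gene's start, as RefSeq annotates it on GRCm38.p6. They were the ISRE core (2 copies of GAAA with any 2 bases between them), the CCAAT box CCAAT, and the core of the antioxidant response element, TGANNNNGC, the kind of site through which Nfe2l1 and Nfe2l2 drive proteasome genes. The table holds 39 windows for 36 members, and Psmb1, Psmb2, Psmb7, Psmc3, Psmd3, Psmd7 and Psmg2 have none. The ISRE core was found before 3 members, in 7.69% of member windows against 2.98% of all 32851 windows and 2.66% of the 10984 windows of genes tested here. That share rests on only 3 of 39 windows, and its difference from the background was not tested. The antioxidant element core was in 38.5% of member windows (35.2% of all) and the CCAAT box in 30.8% (33.8% of all), shares close to those of other promoters. The 3 windows with an ISRE core, of Psmb3, Psmd4 and Psmd9, are shown because Irf3 acts through that element, and that of Psmb5 because it is a catalytic subunit whose groups did not overlap. Each runs 5′ to 3′ on the gene's strand and ends at the base before the start, with the matched letters of any of the 3 motifs in capitals; no match overlapped another.
Psmb3, chr11:97703184-97703433, plus strand: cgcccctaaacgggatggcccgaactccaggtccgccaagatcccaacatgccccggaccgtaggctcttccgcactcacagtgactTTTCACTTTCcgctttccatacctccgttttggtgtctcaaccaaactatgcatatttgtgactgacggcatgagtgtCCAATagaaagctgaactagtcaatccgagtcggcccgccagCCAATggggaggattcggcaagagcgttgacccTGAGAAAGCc
Psmd4, chr3:95042615-95042864, minus strand: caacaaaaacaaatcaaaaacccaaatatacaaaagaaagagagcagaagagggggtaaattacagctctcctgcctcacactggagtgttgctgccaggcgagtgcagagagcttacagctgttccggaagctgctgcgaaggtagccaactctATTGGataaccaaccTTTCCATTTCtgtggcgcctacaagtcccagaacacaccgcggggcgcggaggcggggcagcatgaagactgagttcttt
Psmd9, chr5:123227940-123228189, plus strand: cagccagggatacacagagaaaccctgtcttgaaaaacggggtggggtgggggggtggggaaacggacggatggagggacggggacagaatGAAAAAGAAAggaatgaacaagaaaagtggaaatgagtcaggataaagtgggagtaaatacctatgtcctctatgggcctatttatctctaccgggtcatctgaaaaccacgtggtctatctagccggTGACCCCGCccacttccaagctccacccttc
Psmb5, chr14:54617996-54618245, minus strand: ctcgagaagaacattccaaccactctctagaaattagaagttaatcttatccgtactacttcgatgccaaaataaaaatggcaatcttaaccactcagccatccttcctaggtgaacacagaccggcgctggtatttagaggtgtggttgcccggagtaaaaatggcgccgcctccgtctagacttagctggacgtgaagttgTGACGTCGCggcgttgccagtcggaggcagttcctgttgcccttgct

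The ISRE cores read GAAAGTGAAA for Psmb3 and GAAATGGAAA for Psmd4, both on the strand opposite to the gene, and GAAAAAGAAA for Psmd9 on the gene's own strand. None of these 3 genes had lower values in the knockout as a group: their log2 fold changes were 0.59 ± 0.31 for Psmb3, 0.10 ± 0.17 for Psmd4 and 0.19 ± 0.20 for Psmd9 (SE, n = 3 per group; limma adjusted p = 0.556, 0.774 and 0.658).

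The library sizes behind the RPKM were about 14790000 to 61920000 reads, estimated from the steps between low values, with knockout replicate 3 the deepest. As a check of the labels, Irf3 read 7.4, 8.74 and 7.68 RPKM in the knockout against 13.76, 13.87 and 11.56 RPKM, lower in every knockout library and still read. Its log2 fold change was -0.65 ± 0.18 (SE, n = 3 per group, limma adjusted p = 0.344), so Irf3 itself was not called. Without knockout replicate 2 it was -0.72 ± 0.14 (limma adjusted p = 0.109). Knockout replicate 2 stood apart, with a mean correlation with the other libraries of 0.907 against 0.941 to 0.966. All 12 listed cardiomyocyte markers were read in every library, with a summed level of 13000 to 22900 RPKM in the knockout and 6430 to 17400 in the wild type. Relative to the wild-type mean their median was 0.29, 1.1 and 0.54 (log2) in knockout replicates 1 to 3 and -0.82, 0.21 and 0.73 in wild-type replicates 1 to 3. The 12 monocyte and macrophage markers, none at 0, summed to 2220 to 5780 against 3390 to 6190 RPKM, with medians of 0.12, -1.20 and -0.15 in the knockout and 0.52, -0.24 and -0.24 in the wild type. The 10 fibroblast markers summed to 3860 to 5300 RPKM in the knockout and 6110 to 6920 RPKM in the wild type, without overlap. Their medians were -0.40, -0.93 and -0.30 in the knockout and -0.01, 0.06 and -0.10 in the wild type. The 6 listed lymphocyte markers are not analysed here. None of the listed markers was called between genotypes. The cardiomyocyte and macrophage sums overlapped and the fibroblast sums did not. Marker levels varied from library to library, and their part in the results below was not tested. In whole tissue, fewer cells of a type and less RNA per cell cannot be told apart.

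No proteasome transcript passed the test between Irf3-/- and wild-type infarcts. All 43 genes passed the filter of a mean of at least 1 RPKM, and none was called higher or lower by limma (adjusted p from 0.554 to 0.991), where 0.147% of all 12913 genes tested were called higher and 0.356% lower, 0.503% in all. At an unadjusted limma p under 0.05 there were 2 members, Psma7 and Psmd13, both higher (background 2.45% higher, 5.96% lower). The median log2 fold change over the 43 was 0.09, against -0.09 over all genes, and 29 of 43 had a value above 0, against 40.7% of all genes. Among the 8722 genes in the members' range of mean RPKM the median was -0.05, and 45.0% had a value above 0. The 95% interval of the fold change lay within 2-fold in both directions for 38 of the 43, as it did for 68.2% of all genes. For the other 5, Psma7, Psmb3, Psmd3, Psmd13 and Psme4, a 2-fold difference was within the interval. Estimated library weights, which put most weight on knockout replicate 3 and wild-type replicate 2, called 6 members and 22.9% of all genes; the other alternatives called 0 members.

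**Figure D1:**
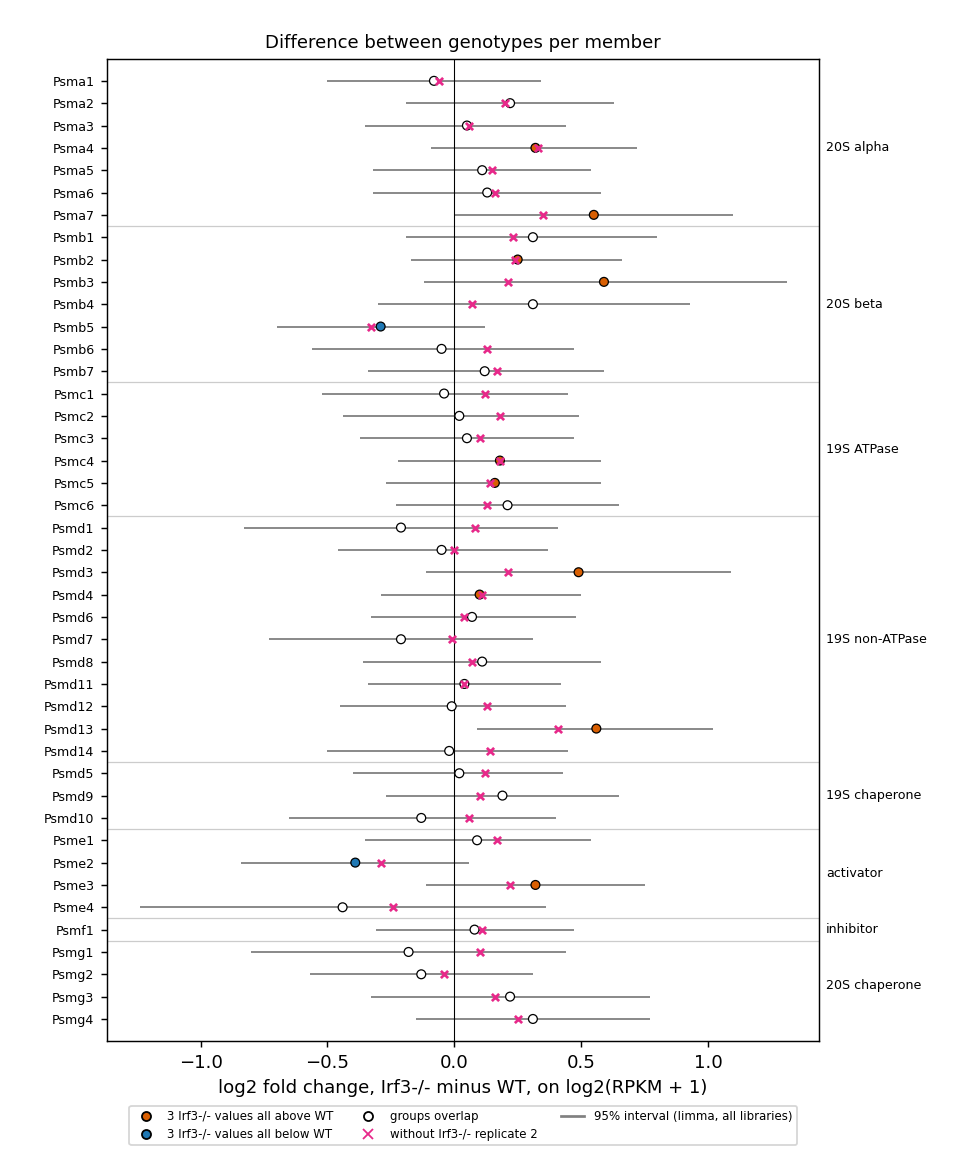
Difference between genotypes for each of the 43 members: circles give the log2 fold change of Irf3-/- minus WT on log2(RPKM + 1), bars the 95% interval from limma, and crosses the value without knockout replicate 2. Circles run from -0.44 (Psme4) to 0.59 (Psmb3), orange where all 3 knockout values lay above the wild type (10 members) and blue where all 3 lay below (2 members).

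The small differences were more often positive than negative. In 10 members all 3 knockout libraries lay above all 3 wild-type libraries, 23.3% of the members where 6.61% of all genes did so. They were Psma4 and Psma7 of the alpha ring, Psmb2 and Psmb3 of the beta ring, Psmc4 and Psmc5 of the ATPase ring, Psmd3, Psmd4 and Psmd13 of the rest of the regulatory particle, and the activator Psme3. Only Psmb5 and Psme2 lay lower in all 3 knockout libraries, 4.65% of the members where 11.8% of all genes did so. Without knockout replicate 2 the counts were 15 higher (background 10.9%) and 2 lower (background 13.1%), the median was 0.13 against 0.01 over all genes, and 36 of 43 values were above 0, against 52.1% of all genes, with 7 below 0, against 47.9%. In that fit 0 members were called, where 0.743% of all genes were (0.209% higher, 0.534% lower). At an unadjusted limma p under 0.05 it held 1 member higher, Psmd13 (background 2.5%), and 0 lower (background 5.29%). Rescaling the libraries by median-of-ratios factors moved the median of all genes from -0.09 to 0.02. It moved that of the members to 0.21, with 35 of 43 above 0. The shares over all genes were not matched for GC content or gene length. Across genes the log2 fold change went with transcript GC content, with a Spearman rho of 0.47 over 11644 genes and 0.24 over the members. With gene length rho was -0.33 over all genes and -0.06 over the members. Their part in these counts was not tested, and genes of the same 6 libraries are not independent.

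On RPKM without rescaling, the members also varied little from library to library. Their median residual SD within a genotype was 0.15 (log2), against 0.30 over all genes and 0.30 over the 8722 genes in the same range of mean level. The summed level of the 43 genes was 2011, 2017 and 1911 RPKM in knockout replicates 1 to 3 and 1886, 1790 and 1742 RPKM in wild-type replicates 1 to 3. The lowest knockout sum was thus above the highest wild-type sum. In knockout replicate 2, where a typical gene stood at -0.29 relative to the wild-type mean, the median member stood at 0.03. The median-of-ratios factor was 0.818 for that library and 1.02 to 1.08 for the others, so rescaling would raise its values against theirs. The SDs and sums of this paragraph were not recomputed after rescaling.

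**Figure D2:**
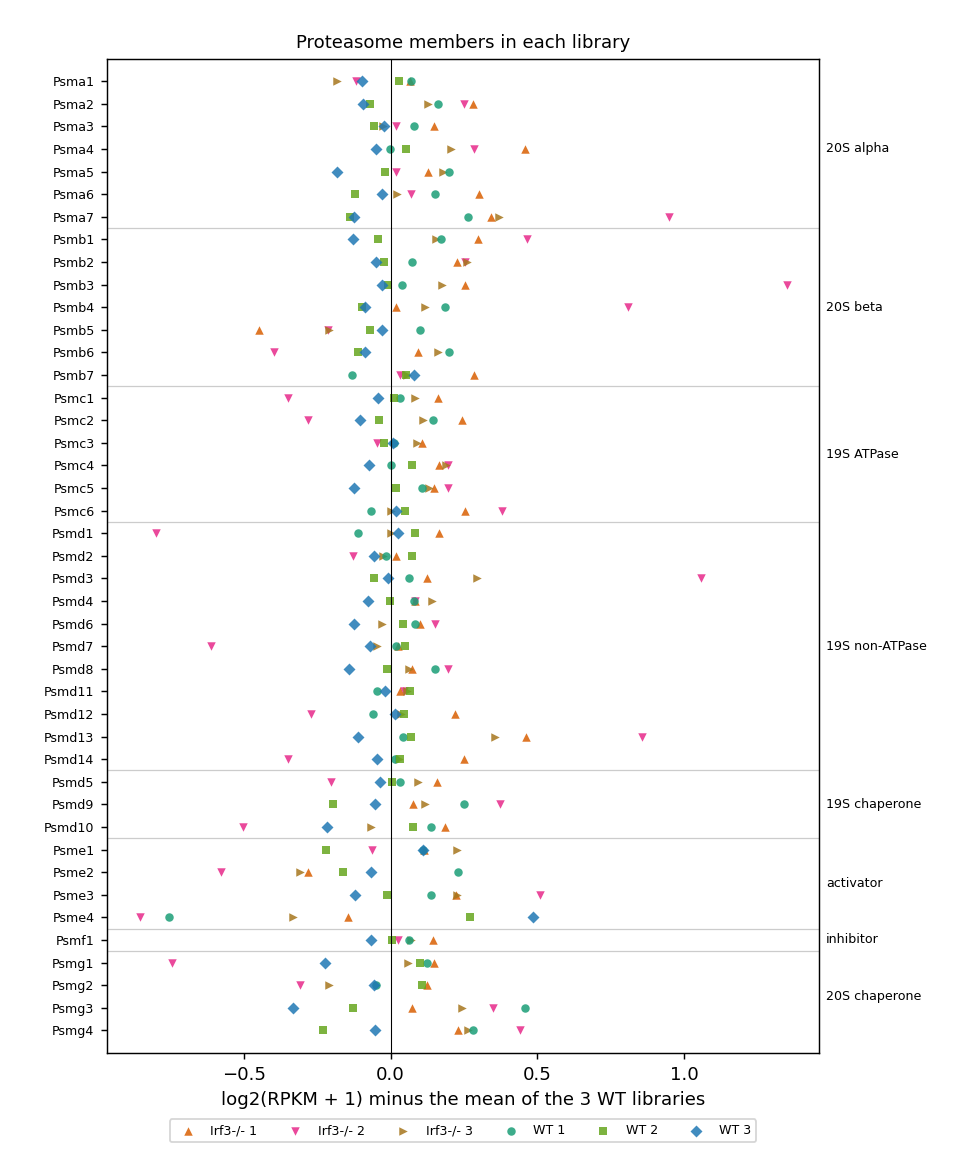
Each member in each library, as log2(RPKM + 1) minus the mean of the 3 wild-type libraries; triangles are knockout libraries and the other symbols wild-type libraries. Most points lie within 0.5 of 0, and the points farthest out on both sides are those of knockout replicate 2, Psmb3 at the right and Psme4 at the left.

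Alpha ring. Over the 7 alpha genes the median was 0.13 on the log2 scale (6 of 7 above 0; 0 called). Psma7, whose product sits in the ring that gates the core, read 53.64, 82.24 and 54.64 RPKM in the knockout and 50.75, 38.16 and 38.54 RPKM in the wild type. All 3 knockout values were above the wild type, knockout replicate 2 by far the most and replicate 1 only narrowly above wild-type replicate 1. The log2 fold change was 0.55 ± 0.24 (SE; limma adjusted p = 0.556), and 0.35 ± 0.18 without knockout replicate 2. Psma4 read 38.62, 34.2 and 32.29 against 27.83, 28.98 and 26.87 RPKM. Here the groups did not overlap and no single library set them apart: the log2 fold change was 0.32 ± 0.18 with all libraries and 0.33 ± 0.15 without knockout replicate 2 (adjusted p = 0.556 and 0.679). Psma6, the highest of the ring by RPKM, was at 91.64, 77.91 and 75.42 against 82.63, 68.22 and 72.69 RPKM, and Psma3, the lowest, at 7.22, 6.53 and 6.30 against 6.84, 6.15 and 6.31 RPKM. The groups overlapped for both (log2 fold changes 0.13 ± 0.20 and 0.05 ± 0.17).

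Beta ring. The 7 constitutive beta genes had a median of 0.25 (5 of 7 above 0; 0 called). Psmb3, a non-catalytic subunit, read 13.2, 29.37 and 12.45 RPKM in the knockout and 11.24, 10.86 and 10.68 RPKM in the wild type. All knockout values were above the wild type, with knockout replicate 2 far above the other 5 libraries, so the log2 fold change of 0.59 ± 0.31 became 0.21 ± 0.12 without it (adjusted p = 0.556 and 0.772). Psmb2, another non-catalytic subunit, was among the steadiest: 76.75, 78.29 and 78.63 against 68.85, 64.45 and 63.2 RPKM. Its groups were apart by more than the spread within either of them, at 77.9 ± 1.0 against 65.5 ± 2.97 RPKM (SD, n = 3 per group), 1.19-fold, with a log2 fold change of 0.25 ± 0.18 (adjusted p = 0.569). Psmb1, the highest member of all by RPKM, read 164.35, 184.69 and 148.71 against 150.37, 129.6 and 122.2 RPKM, with overlapping groups (0.31 ± 0.22, adjusted p = 0.565).

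The catalytic beta subunits gave values of both signs, and the differences among them were not tested. Psmb5, which carries the chymotrypsin-like site, read 18.91, 22.43 and 22.46 RPKM in the knockout and 28.09, 24.84 and 25.6 RPKM in the wild type. Every knockout value was below every wild-type value, with knockout replicate 1 the lowest. Its log2 fold change was -0.29 ± 0.18 with all libraries and -0.33 ± 0.15 without knockout replicate 2 (adjusted p = 0.556 and 0.679). Psmb6, which carries the caspase-like site, read 63.26, 44.74 and 66.32 against 68.14, 54.86 and 55.67 RPKM, with overlapping groups and knockout replicate 2 lowest. Its log2 fold change was -0.05 ± 0.22 (adjusted p = 0.919), and 0.13 without knockout replicate 2. Psmb7, which carries the trypsin-like site, read 128.73, 108.02 and 109.73 against 96.34, 109.41 and 111.46 RPKM, again overlapping (0.12 ± 0.20, adjusted p = 0.77). None of the 3 differed by the test. Of the 50-base windows of the Psmb5 transcript, 57.1% also occur in transcripts of other genes. How reads from them were counted is not known, so the level of Psmb5 is uncertain.

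The interferon-inducible subunits outside the rule give these values a scale. Psmb8 takes the place of Psmb5, Psmb9 that of Psmb6 and Psmb10 that of Psmb7. The ratio of Psmb9 to Psmb6 was 0.0768, 0.0818 and 0.0641 in knockout replicates 1 to 3 and 0.108, 0.0962 and 0.103 in wild-type replicates 1 to 3. All 3 knockout ratios were lower, a log2 difference of -0.47. By an exact permutation test, two-sided, p was 0.1, the smallest that 3 against 3 can give, and 0.3 adjusted over the 3 pairs. The difference was -0.39 with 1 RPKM added to each value. With single libraries left out it ran from -0.54 (without knockout replicate 2) to -0.37 (without knockout replicate 3). The ratio of Psmb8 to Psmb5 was 0.506 ± 0.0632 in the knockout and 0.473 ± 0.0830 in the wild type (SD, n = 3 per group), a log2 difference of 0.11 (exact permutation p = 0.5, adjusted 0.75), which ranged from 0.01 (without knockout replicate 1) to 0.25 (without wild-type replicate 1) and was 0.03 and 0.04 without wild-type replicates 2 and 3. That of Psmb10 to Psmb7 was 0.397 ± 0.0808 against 0.414 ± 0.0789, a log2 difference of -0.07 (exact permutation p = 0.8, adjusted 0.8), and it changed sign when single libraries were left out. Psmb9 itself was at 4.86, 3.66 and 4.25 against 7.35, 5.28 and 5.75 RPKM, without overlap (log2 fold change -0.43 ± 0.20, limma adjusted p = 0.556). Of the 50-base windows of the Psmb9 transcript, 12.5% also occur in a transcript of another gene, Tap1. Psmb8 and Psmb10 overlapped between groups (-0.18 ± 0.21 and 0.06 ± 0.19, adjusted p = 0.677 and 0.89).

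**Figure D3:**
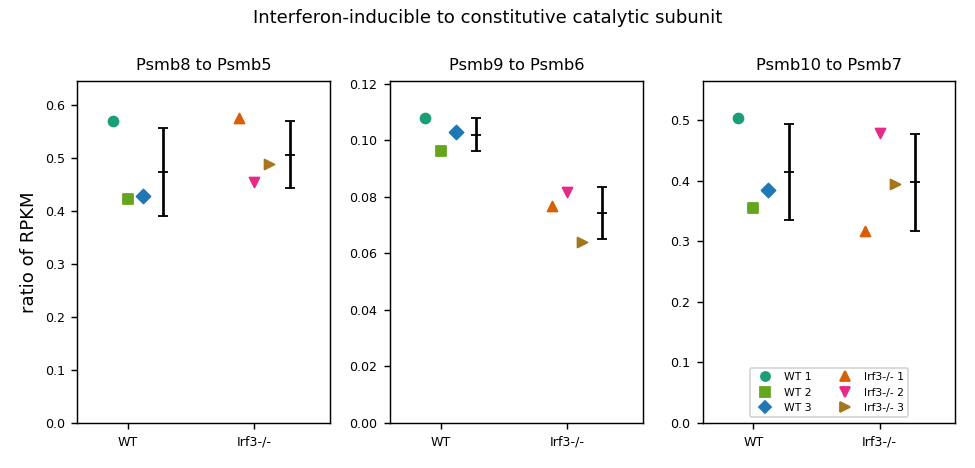
Ratio of RPKM of each interferon-inducible catalytic subunit to the constitutive subunit it replaces, one symbol per library, with the mean and SD (n = 3) of each group as a bar. The knockout ratios of Psmb9 to Psmb6 (0.0641 to 0.0818) lie below the wild-type ratios (0.0962 to 0.108), and the other pairs overlap.

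Regulatory particle, ATPase ring. The 6 Psmc genes stayed closest together, with log2 fold changes from -0.04 to 0.21 (5 of 6 above 0; 0 called). Psmc4 read 52.57, 53.65 and 53.41 RPKM in the knockout and 46.87, 49.21 and 44.38 RPKM in the wild type, and Psmc5 70.99, 73.41 and 70.15 against 69.04, 64.81 and 58.69 RPKM. For both, the knockout libraries lay within a narrow range above the wild type, at 1.14-fold and 1.11-fold (log2 fold changes 0.18 ± 0.17 and 0.16 ± 0.18, adjusted p = 0.626 and 0.685). Psmc1, the highest of the ring by RPKM, read 88.08, 61.55 and 83.29 against 80.5, 79.22 and 76.32 RPKM, and Psmc2, the lowest, 24.4, 16.65 and 22.12 against 22.67, 19.86 and 18.96 RPKM. In both of these knockout replicate 2 was the lowest of all 6 libraries; without it the log2 fold changes went from -0.04 to 0.12 and from 0.02 to 0.18.

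Regulatory particle, non-ATPase subunits. The 11 Psmd subunits had a median of 0.04 (6 of 11 above 0; 0 called) and ranged from -0.21 to 0.56. Psmd13 (Rpn9), a scaffold subunit of the lid, had the smallest p of the 43: 41.85, 55.41 and 38.91 RPKM in the knockout against 31.08, 31.68 and 27.86 RPKM in the wild type, which is 45.4 ± 8.80 against 30.2 ± 2.05 RPKM (SD, n = 3 per group). All 3 knockout libraries were well above the wild type. The log2 fold change was 0.56 ± 0.20 (95% interval 0.09 to 1.02; limma adjusted p = 0.554), and 0.41 ± 0.14 without knockout replicate 2 (adjusted p = 0.523). Of the 50-base windows of its transcript 15.8% also occur in transcripts of another gene, most of them in Sirt3. Psmd3 (Rpn3), also of the lid, read 23.86, 46.44 and 26.99 against 22.85, 20.94 and 21.7 RPKM. Its groups did not overlap, but knockout replicate 2 carried most of the difference, 0.49 ± 0.26 with it and 0.21 ± 0.14 without it.

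Other subunits of the particle went the other way in knockout replicate 2. Psmd1 (Rpn2), the large scaffold of the base, read 44.2, 22.18 and 39.36 RPKM in the knockout against 36.32, 41.74 and 40.05 RPKM in the wild type. Knockout replicate 2 was far below the other 5 libraries, which overlapped, and the log2 fold change went from -0.21 ± 0.27 to 0.08 ± 0.15 without it. Psmd4 (Rpn10), a ubiquitin receptor, read 37.31, 37.35 and 38.87 against 37.24, 35.1 and 33.28 RPKM, without overlap but with knockout replicates 1 and 2 only just above wild-type replicate 1. Psmd8, the highest of these subunits by RPKM, read 126.38, 137.7 and 125.37 against 133.51, 119.05 and 108.68 RPKM, and Psmd11, the lowest, 13.13, 13.26 and 13.38 against 12.38, 13.49 and 12.65 RPKM, with overlapping groups (0.11 ± 0.20 and 0.04 ± 0.17). Of the chaperones that assemble the base, Psmd10 (gankyrin) read 15.37, 9.15 and 12.74 against 14.82, 14.18 and 11.39 RPKM and Psmd9 5.76, 7.31 and 5.96 against 6.63, 4.6 and 5.19 RPKM, again overlapping.

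Activators, inhibitor and core chaperones. Psme1 and Psme2 encode the subunits of one activator ring (PA28), and both are known as interferon-inducible, yet their values differed in direction. Psme2 read 8.39, 6.64 and 8.20 RPKM in the knockout and 12.37, 9.19 and 9.88 RPKM in the wild type, without overlap, 7.74 ± 0.96 against 10.5 ± 1.67 RPKM (SD, n = 3 per group). The fold change on the log2 scale was -0.39 ± 0.20 (adjusted p = 0.556), and -0.29 ± 0.16 without knockout replicate 2. Psme1 read 43.15, 38.12 and 46.75 against 43.04, 34.06 and 43.11 RPKM, with overlap (0.09 ± 0.19, adjusted p = 0.823); the difference between the 2 genes was not tested. Reads of Psme2 are uncertain: 59.3% of its 50-base windows occur in another gene, most in its retrocopy, listed as Psme2b-ps, which stood at 56.61, 37.45 and 54.29 against 74.8, 56.5 and 56.93 RPKM (-0.35 ± 0.23, adjusted p = 0.561; -0.16 without knockout replicate 2 and -0.22 without wild-type replicate 1). Psme3, which forms the nuclear activator ring, read 33.74, 41.39 and 33.81 against 31.74, 28.51 and 26.36 RPKM, all knockout values higher (0.32 ± 0.19, adjusted p = 0.556).

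Psme4, which encodes the large single-chain activator PA200, had the lowest fold change and the largest spread of the 43 genes. It read 41, 24.65 and 35.84 RPKM in the knockout and 26.48, 55 and 63.88 RPKM in the wild type. Wild-type replicate 1 lay with the knockout libraries and below 2 of them, 2.41-fold under wild-type replicate 3. The log2 fold change was -0.44 ± 0.35 (95% interval -1.24 to 0.36, adjusted p = 0.579). Single libraries moved it, to -0.82 without wild-type replicate 1, -0.20 without wild-type replicate 3 and -0.24 without knockout replicate 2. Wild-type replicate 1 was also the library with the lowest cardiomyocyte markers (-0.82) and the highest macrophage markers (0.52); their part in this spread was not tested. The inhibitor Psmf1 (PI31) was level at 4.96, 4.48 and 4.66 against 4.63, 4.41 and 4.14 RPKM (0.08 ± 0.17). Of the core's assembly chaperones, Psmg4 read 16.84, 19.66 and 17.26 against 17.5, 11.98 and 13.67 RPKM and Psmg3 10.55, 12.98 and 12.01 against 14.08, 9.06 and 7.73 RPKM, with overlap (0.31 ± 0.20, or 0.20 without wild-type replicate 2, and 0.22 ± 0.24). Psmg1 read 13.13, 6.62 and 12.29 against 12.89, 12.67 and 9.94 RPKM, knockout replicate 2 the lowest (-0.18 ± 0.27, and 0.10 without it).

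The subunits were most scattered in knockout replicate 2. Relative to the mean of knockout replicates 1 and 3, members ranged there from -0.88 (Psmd1) to 1.14 (Psmb3) on the log2 scale, with an SD over members of 0.42, while replicates 1 and 3 differed by -0.24 to 0.33 with an SD of 0.13. Above 0.5 stood 4 members, Psma7, Psmb3, Psmb4 and Psmd3, and below -0.5 stood 6, Psmb6, Psmd1, Psmd7, Psmd10, Psme4 and Psmg1. Psmb4 for example read 125.42, 217.5 and 134.18 RPKM in the knockout and 140.73, 115.57 and 116.53 RPKM in the wild type. Its log2 fold change was 0.31 with that library and 0.07 without it. Genes in general were more scattered still in that library, with an SD of 0.67 over all genes against 0.25 between replicates 1 and 3. The deviation went with the GC content of the transcript, with a Spearman rho of 0.34 over the 43 members and 0.63 over 11644 genes, and with gene length at -0.07 and -0.32. These are descriptions across genes of the same libraries, which are not independent of each other. Knockout replicate 2 also had the highest median of the cardiomyocyte markers (1.1). It had the lowest medians of the macrophage (-1.20) and fibroblast (-0.93) markers. The part of GC content, length and cell types in its deviation was not tested.

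**Figure D4:**
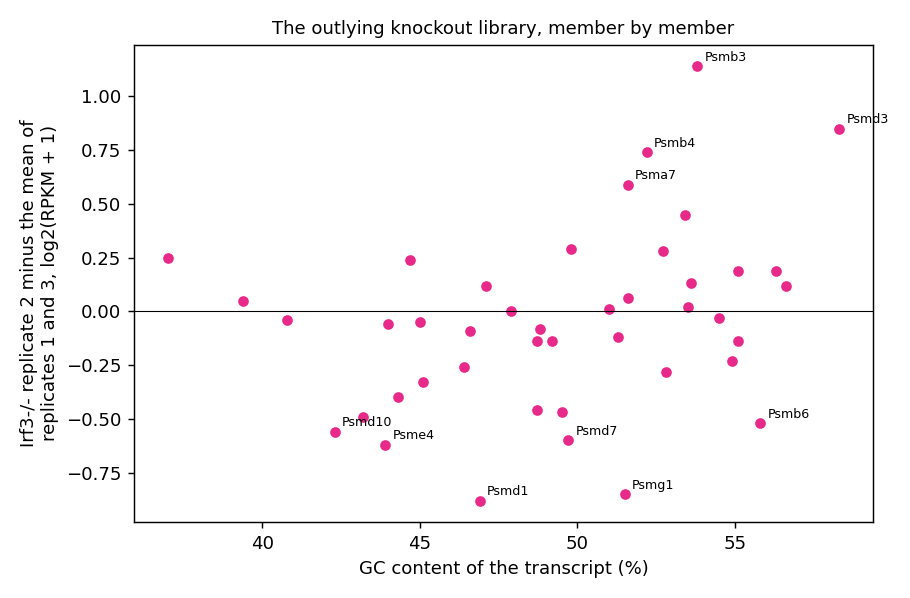
Knockout replicate 2 minus the mean of knockout replicates 1 and 3 on log2(RPKM + 1), against the GC content of each member's transcript in percent; names mark members beyond 0.5 either way. The highest points, Psmb3 and Psmd3, have 53.8% and 58.3% GC, and the lowest, Psmd1 and Psmg1, 46.9% and 51.5%.

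Levels between subunits spread far more than levels between genotypes, although core subunits are built into the particle in equal numbers. By mean RPKM over the 6 libraries, the 14 core subunits ran from 6.56 (Psma3) to 150 (Psmb1), 22.9-fold, and the 17 regulatory subunits from 13.1 (Psmd11) to 125 (Psmd8), 9.59-fold. The gene lengths in the deposited table exceed those of the GENCODE transcript with the longest coding sequence for 35 of 43 members, being 3.36 times as long for Psma7 and 3 times as long for Psmb3. With RPKM rescaled to that transcript's length, the regulatory subunits spanned 4.19-fold, from 29.3 to 123, and the core subunits still 19.8-fold, from 8.97 for Psma3 to 178 for Psma7.

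Several of the low core subunits shared much sequence with other genes. Of 50-base windows, 55.4% in Psma5, 55.8% in Psmb3, 57.1% in Psmb5, 31.5% in Psma4, 28.1% in Psmb7 and 22% in Psma3 also occur in a transcript of another gene, for Psma3, Psma4, Psma5 and Psmb5 most with predicted genes and for Psmb7 with Nek6. These 6 core subunits, the ones with over 10% shared, had a median of 34.1 rescaled RPKM, and the other 8 one of 96.9, with Psma2 lowest among those at 29.3. Psma5 read 9.26, 8.50 and 9.63 RPKM in the knockout and 9.78, 8.27 and 7.27 RPKM in the wild type, low in every library. Among regulatory subunits the 4 with over 10% shared had a median of 69.5 and the other 13 one of 62.7. A shared window can be a copy elsewhere in the genome or the same stretch of genome within an overlapping gene. The window counts do not tell these apart, and the groups with over 10% shared were not split by them. No source used here says how reads that map to several places or fall in overlapping genes were counted. Levels of members with shared sequence are therefore uncertain, and the part of sharing in those levels was not tested.

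**Figure D5:**
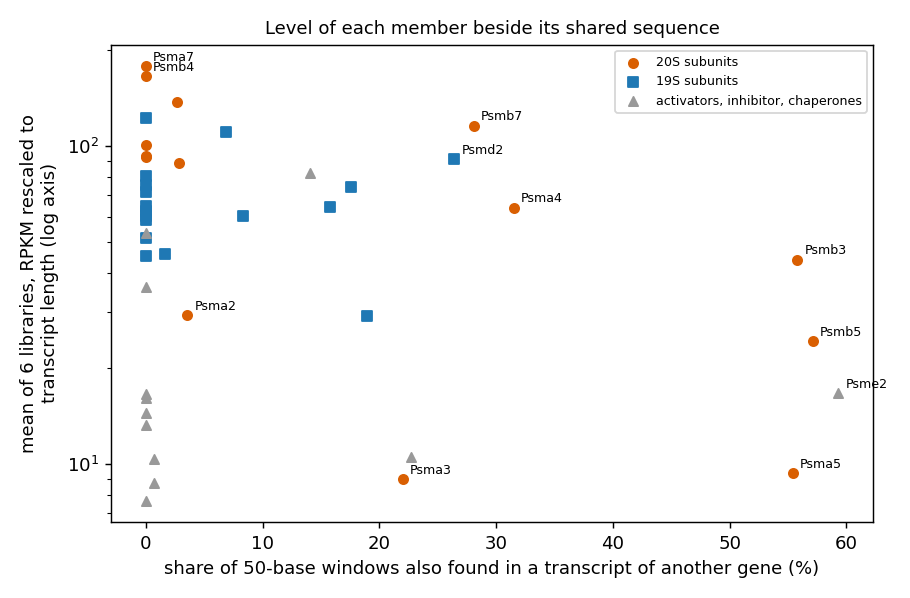
Mean level of each member (RPKM rescaled to transcript length, log axis) against the percent of its 50-base windows that also occur in a transcript of another gene. Core subunits (orange circles) with under 10% shared lie at 29.3 to 178, and of the 6 with more, Psma3, Psma5 and Psmb5 lie below that range, at 8.97 to 24.3, and Psma4, Psmb3 and Psmb7 within it, at 43.9 to 116.

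No gene of the lists that work with the proteasome was called either. Of 36 listed, 35 were in the table and tested, 0 were called in either direction and 0 had an unadjusted limma p under 0.05 (background 8.40% in either direction), and 16 of 35 had a log2 fold change above 0 (median -0.05). Pomp, the chaperone that matures the core, read 134.45, 132.41 and 112.28 RPKM in the knockout and 134.09, 120.92 and 111.11 RPKM in the wild type. Of the transcription factors that drive proteasome genes, Nfe2l1 overlapped between groups at 98.0 ± 7.58 against 80.3 ± 16.8 RPKM (SD, n = 3 per group). Nfe2l2, the oxidative stress regulator, read 34.47, 10.79 and 29.84 against 42.28, 39.7 and 41.83 RPKM. All its knockout values were lower, with knockout replicate 2 far below the rest (-0.85 ± 0.39, adjusted p = 0.556, and -0.35 ± 0.15 without that library). The muscle ubiquitin ligases Trim63 (MuRF1) and Fbxo32 (atrogin-1) stood at 28.3 ± 1.55 against 26.4 ± 12.8 and at 12.9 ± 3.33 against 17.5 ± 6.44 RPKM, with a wide wild-type spread. The other genes with the smallest p of their lists were Shfm1 (0.31) and AI314180 (-0.31) among proteasome-associated proteins, Ubqln4 (0.34) among shuttle factors, which carry ubiquitinated proteins to the proteasome, Nfya (-0.42) among the transcriptional regulators, Nploc4 (0.33) and Ufd1l (-0.27), cofactors of the p97 unfoldase, and the ubiquitin-activating enzymes Uba1 (0.33) and Uba6 (-0.51), all values log2 fold changes with limma adjusted p from 0.556 to 0.618. Without knockout replicate 2 all of these were smaller, at 0.21 for Shfm1, -0.01 for AI314180, 0.05 for Ubqln4, -0.10 for Nfya, 0.16 for Nploc4, -0.15 for Ufd1l, 0.20 for Uba1 and -0.20 for Uba6. Fbxo32, at -0.37 with all libraries, was at -0.22 without it, -0.68 without wild-type replicate 1 and -0.14 without wild-type replicate 3. By list the median was -0.18 for the 3 immunoproteasome genes, 0.00 for 8 associated proteins, 0.01 for 5 shuttle factors, -0.27 for 7 transcriptional regulators, -0.09 for 4 p97 genes, 0.05 for 6 ubiquitin and activating enzyme genes and -0.07 for the 2 muscle ligases.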

How the data were processed

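The table the authors deposited holds RPKM, rounded to 2 decimals, with a gene length, for 6 libraries. The submitters' processing notes name STAR 2.3.0, HTSeq 0.6.0, edgeR 3.8.6, Picard 1.100 and SAMtools 0.1.18.0, with NCBIM37 (mm9) as build; their settings are not given. In 5 lines the gene name ran into the first value, and these were repaired. Depth came from the 1-read steps of low values: 100% of the 73 to 356 values used per library were whole to within 0.2 reads (40% by chance). The fewest reads behind a member's value in any library were 102.

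limma 3.58.1 (R 4.3.3; eBayes with a trend, two-sided) was run on log2(RPKM + 1) of every gene whose mean reached 1 RPKM, Benjamini-Hochberg adjusted over 12913 genes, threshold 0.05. This scale understates changes of low genes. Intervals are at 95% and not adjusted. On simulated data for this comparison over 12913 genes 33 of 100 genes set to a 2-fold change were called, 81 of 100 set to 4-fold, and 5 that had none. The simulated noise was independent and of equal SD in all 6 libraries for each gene, so it held no outlying library. Changed genes were drawn from all genes, so these rates are not those of the members. Ratios used exact permutation tests in scipy 1.17.1.

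The members and lists were chosen with earlier results of these data known. Members given per library were the catalytic subunits, the activators, the 3 highest and 3 lowest fold changes, the highest and lowest level in each role, and those with p under 0.05; of other lists, the 2 smallest p. A gene that this rule names is not reported here. Psma4, Psma5, Psmb2, Psmb4, Psmc4, Psmc5, Psmd1, Psmd3, Psmd4, Psmg1, Psme2b-ps, Pomp and Nfe2l1, the search for the ISRE core, the 50-base windows and their 10% limit were added after values were seen. Transcript length, GC content and shared windows came from GENCODE M21. Alternatives covered the pseudocount, the filter, scaling, the trend, library weights, the replicate block and leaving out each library.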

Additional observations from a re-analysis of the deposited data

How the results depend on the processing

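No member was called under 12 of the 13 alternatives to the fit. Estimated library weights, from 0.104 for knockout replicate 2 to 6.36 for knockout replicate 3, called 2960 genes against 65, among them 5 members higher (Psma7, Psmd3, Psmd13, Psme1, Psmg4) and 1 lower (Psme4), with 13 members at an unadjusted p under 0.05. That fit rests largely on knockout replicate 3 and wild-type replicate 2 (weight 4.40). A mean of at least 5 RPKM, which leaves out Psmf1, called 34 genes, with 1 member at an unadjusted p under 0.05. The replicate block called 250 genes, with 0 such members. Same-numbered libraries deviated with correlations of 0.129, -0.098 and -0.102, and the other pairs with -0.212 to 0.19. The labels state no pairing, and 3 libraries per group are too few for these correlations to decide it. Leaving out single libraries gave 21 (without wild-type replicate 3) to 96 (without knockout replicate 2) called genes, 26, 30 and 31 without knockout replicate 3 and wild-type replicates 2 and 1, with 0 to 3 members at an unadjusted p under 0.05 and a median over members of 0.05 to 0.13. Median-of-ratios scaling gave a median of 0.21. The Psmb10 to Psmb7 log2 difference ranged from -0.21 to 0.09, at 0.09 without knockout replicate 1 and 0.08 without wild-type replicate 1. Some single-gene log2 fold changes changed sign. With libraries left out in turn the ranges were -0.15 to 0.13 for Psmb6, -0.02 to 0.17 for Psme1, 0.00 to 0.09 for Psma3, -0.13 to 0.12 for Psmc1, -0.09 to 0.18 for Psmc2, -0.40 to 0.08 for Psmd1, -0.28 to 0.06 for Psmd10, -0.34 to 0.10 for Psmg1, -0.04 to 0.14 for Psmb10 and -0.23 to 0.53 for Trim63. Rescaling gave 0.07 for Psmb6 and 0.09 for Psmc1. Library weights gave 0.23 for Psmb6, 0.08 for Psmc1, 0.01 for Psmb8, 0.01 for Psmg1 and -0.09 for Trim63. Beyond what the alternatives construct, the cause was not tested. Each member had at least 102 reads in every library.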
